A study of Caenorhabditis elegans with 6 samples.

Results

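The dod genes of Caenorhabditis elegans take their name from standing downstream of DAF-16, and 10 of them are named in the deposited table of 46739 features. They were chosen by gene name alone, with no threshold on a value, and no other feature of the table carries a dod name. The family was put forward with results of the same contrast in view, so its values here are a description and its p values are no independent support. Wild-type worms of the N2 strain were raised on bacteria that carried either the empty vector, a control against no worm gene, or the rab-11.1 RNAi clone, for the whole of development at 20 °C. Polyadenylated RNA of whole worms at the fourth larval stage was sequenced in 3 libraries of each group, which the labels call biological replicates, and neither the number of worms nor any pooling is given in the sources used here. The contrast addresses which transcripts change when rab-11.1, a small GTPase gene of recycling endosomes, is targeted.

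DAF-16 is the FOXO transcription factor that acts at the end of the worm's insulin pathway. When the insulin receptor DAF-2 signals, the kinases AGE-1, PDK-1, AKT-1 and AKT-2 keep DAF-16 out of the nucleus. When the receptor is weak, as in long-lived daf-2 mutants, DAF-16 enters the nucleus and transcription shifts. The dod genes were named from that shift: dod-3 and dod-6 belong to the genes that are raised in daf-2 mutants, and dod-17 to dod-24 to the genes that are lowered there. Several of the second kind, among them dod-22 and dod-24, are also known as genes of the intestinal response to bacterial pathogens.

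Of the 10 genes, 6 rose after rab-11.1 RNAi (dod-3, dod-19, dod-20, dod-21, dod-22 and dod-24), 0 fell, and 4 did not pass (dod-6, dod-17, dod-18 and dod-23). Across the 13833 features tested, 7.93% were called higher and 1.07% lower. All 3 rab-11.1 RNAi libraries lay above all empty vector libraries for the same 6 genes and for 27.4% of the features tested. For dod-21 the filter, 1 RPKM in 3 or more libraries, fixed this, since none of its empty vector libraries reached 1 RPKM. Such counts, here and below, were made on RPKM without rescaling. The median-of-ratios factors were 0.941 to 0.977 for the empty vector libraries and 1.04 to 1.05 for those of rab-11.1 RNAi. With the replicate number as a block in the fit, the same 6 dod genes passed, against 21% of the features tested in either direction. Since the family was chosen with this contrast known, nothing is read from the difference. The median log2 fold change of the 10 genes was 1.05, against 0.09 over all features tested. Both kinds of dod gene were among those that rose. Of the genes raised in daf-2 mutants, dod-3 rose and dod-6 did not pass, and of the 8 genes lowered there, 5 rose. Adjusted p values are from limma on log2(RPKM + 1) with Benjamini-Hochberg adjustment over all features tested, those that reached 1 RPKM in 3 or more libraries. RPKM counts reads per kilobase of transcript, scaled to library depth, and fold increases are ratios of mean RPKM.

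The libraries held 22946375 to 30183162 reads, a depth that the spacing of the deposited values gives. The targeted gene rab-11.1 (WBGene00004274) stood at 411.1, 398.2 and 409.5 RPKM with the empty vector and at 151.3 and 137.8 RPKM for replicates 1 and 2 of rab-11.1 RNAi, whereas the library labelled replicate 3 of rab-11.1 RNAi held 632.6 RPKM. In the RPKM of its target that library goes against its label, and the cause was not tested. Every direction below includes that library unless it is said to be left out. Replicate 2 of each group stood away from its group's other replicates on the second principal component (19.1% of the variance) and also on the first (65.3%), which separated the groups. On the first, the empty vector libraries were at -39.1, -6.4 and -33.7 and those of rab-11.1 RNAi at 17.3, 50.5 and 11.4.

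In the empty vector libraries the levels spread from dod-21 at 0.727 ± 0.106 RPKM to dod-19 at 225 ± 30.8 RPKM (SD, n = 3). In that group the order ran dod-19, dod-6, dod-24, dod-17, dod-18, dod-22, dod-3, dod-23, dod-20 and dod-21. The neighbours dod-18 and dod-22, dod-22 and dod-3, and dod-20 and dod-21 overlapped in their libraries, and the other neighbours in the order did not. After rab-11.1 RNAi the first 3 places were the same, but dod-22 moved past dod-18 and dod-17, and dod-3 moved past dod-18. Likewise dod-20 and dod-21 moved past dod-23, which became the lowest at 2.18 ± 0.816 RPKM. In that group dod-6 and dod-24, dod-17 and dod-3, and dod-20 and dod-21 overlapped. The RPKM of the 10 genes summed to 436.0, 515.5 and 470.6 in the empty vector libraries and to 871.7, 729.2 and 786.3 after rab-11.1 RNAi, and dod-19 alone held 45.3% to 59.0% of that sum.

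**Figure D1:**
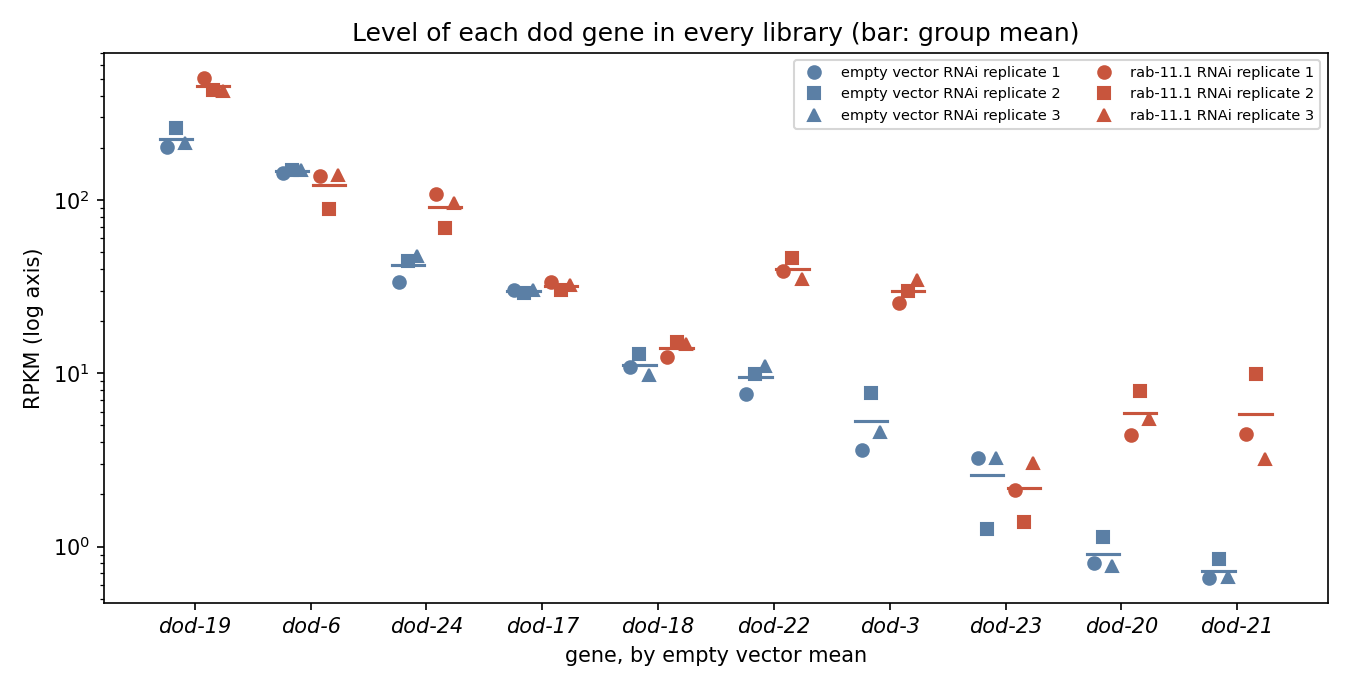
RPKM of the 10 dod genes on a log axis in every library, with genes ordered by their empty vector mean, blue for empty vector RNAi and red for rab-11.1 RNAi, a marker shape for each replicate number and a bar at the group mean. For dod-19, dod-24, dod-22, dod-3, dod-20 and dod-21 the red points lie above all blue points, whereas dod-17, dod-18 and dod-23 overlap and dod-6 lies slightly lower.

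Among the genes raised in daf-2 mutants, dod-3 (WBGene00016052, WBcel235 chromosome V, 2730622 to 2731098, minus strand, 2 exons) had the largest log2 fold change of the family with the pseudocount of 1, whereas dod-20 and dod-21 were larger with a pseudocount of 0.1, with limma-voom and in the ratio of means. It stood at 3.62, 7.66 and 4.57 RPKM in empty vector replicates 1, 2 and 3, with at least 58 reads in each library. With rab-11.1 RNAi it stood at 25.4, 30.0 and 34.6 RPKM, with at least 310 reads in each. The groups did not overlap, and the library labelled replicate 3 of rab-11.1 RNAi held the highest value. The increase was 5.68-fold (log2 fold change 2.34, SE 0.24, adjusted p = 0.0034), from 5.28 ± 2.11 to 30.0 ± 4.57 RPKM (SD, n = 3). Of the 1097 features called higher, it was the 51st by log2 fold change.

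The other gene of that kind, dod-6 (WBGene00011869, chromosome III, 10197716 to 10198352, plus strand, 2 exons), stood at 143.5, 148.5 and 149.6 RPKM with the empty vector. With rab-11.1 RNAi it stood at 138.0, 89.1 and 139.7 RPKM. All of these lay below the empty vector libraries, which is the case for 6.53% of all features tested, but only replicate 2 was far below, at 60.5% of the empty vector mean. The log2 fold change of -0.29 (SE 0.17) did not pass (adjusted p = 0.331). Without rab-11.1 RNAi replicate 2 it was -0.08. Empty vector libraries varied little for this gene (coefficient of variation 2.21%), against 23.5% in the other group.

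Of the genes lowered in daf-2 mutants, 4 lie on chromosome IV within 41.6 kb, in the order dod-21, dod-24, dod-22 and dod-17. Of these, dod-21 and dod-24 have 3 exons and a coding length of 1083 bases each. The other members, dod-22 and dod-17, have 8 exons and coding lengths of 1026 and 1023 bases. That structure is not particular to dod genes: their neighbours F55G11.2, F55G11.4 and F55G11.8, among others, have 8 exons and a coding length of 1023 bases. All 4 dod genes of the stretch are known to encode proteins with a CUB-like domain. The sequences were not compared here. Whether reads are shared between these genes, or with neighbours of like structure, was thus not tested.

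At the left end, dod-21 (WBGene00007873, chromosome IV, 12936738 to 12937988, plus strand) was near the floor of detection with the empty vector. It was listed at 0.663, 0.848 and 0.669 RPKM there, on 22, 28 and 20 reads, where the counting error of 20 reads is 22.4%. With rab-11.1 RNAi it stood at 4.44, 9.89 and 3.19 RPKM, on 112, 254 and 88 reads. The increase was 8.04-fold (log2 fold change 1.87, SE 0.34, adjusted p = 0.0238), and it was 5.25-fold without rab-11.1 RNAi replicate 2, which held the highest value. No empty vector library reached 1 RPKM, so the gene entered the test only through the group in which it was high. Its log2 fold change was 0.87 with a pseudocount of 5 and 2.80 in limma-voom on recovered reads. Its call ended without empty vector replicate 1 or 3 (adjusted p = 0.0882 and 0.106) or without rab-11.1 RNAi replicate 1 (adjusted p = 0.0661).

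Some 2 kb further on, dod-24 (WBGene00007875, chromosome IV, 12940106 to 12941354, minus strand) was expressed at a much higher level. It stood at 33.7, 44.3 and 47.5 RPKM with the empty vector and at 107.6, 69.3 and 95.6 RPKM with rab-11.1 RNAi. In this gene replicate 2 was the lowest of the rab-11.1 RNAi libraries, the reverse of dod-21. The increase was 2.17-fold, from 41.9 ± 7.22 to 90.8 ± 19.6 RPKM (SD, n = 3; log2 fold change 1.09, SE 0.19, adjusted p = 0.0206). The call ended without empty vector replicate 1 or 3 (adjusted p = 0.0692 and 0.0657), without rab-11.1 RNAi replicate 1 (adjusted p = 0.0675) and without the library labelled replicate 3 of rab-11.1 RNAi (adjusted p = 0.061). The log2 fold change in the fits that left out 1 library ran from 0.95 to 1.27.

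Further along the stretch, dod-22 (WBGene00010125, chromosome IV, 12965374 to 12967392, plus strand) had the smallest adjusted p of the family. It stood at 7.59, 9.92 and 11.04 RPKM with the empty vector, on 281, 365 and 368 reads. With rab-11.1 RNAi it stood at 38.8, 46.2 and 35.1 RPKM, on 1092, 1322 and 1080 reads. The lowest library of the rab-11.1 RNAi group thus lay well above the highest of the other group. The log2 fold change was 1.97 (SE 0.16, adjusted p = 0.0021), and the fold in means ran from 3.82 to 4.57 when 1 library was left out.

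At the right end, dod-17 (WBGene00010745, chromosome IV, 12976303 to 12978343, plus strand) was nearly level. It stood at 30.2, 29.0 and 30.4 RPKM with the empty vector and at 33.5, 30.0 and 32.3 RPKM with rab-11.1 RNAi. The groups overlapped, and the log2 fold change was 0.09 (SE 0.07, adjusted p = 0.483), the median of all features tested. Under both rescalings of the libraries, by median-of-ratios factors and by quantiles, its sign turned, to -0.03 and -0.05. The gene had 807 to 1050 reads in each library, so counting error was at most 3.52%.

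The other pair of neighbours, dod-19 and dod-20, lies on chromosome V with 7.7 kb between them. The first, dod-19 (WBGene00022644, 411782 to 414759, minus strand), was the most abundant dod gene in every library. It stood at 201.7, 259.9 and 213.2 RPKM with the empty vector and at 504.9, 430.4 and 422.7 RPKM with rab-11.1 RNAi. The rise was close to a doubling, 2.01-fold in means (log2 fold change 1.01, SE 0.12, adjusted p = 0.00572), with 8114 to 16221 reads in each library. The spread within each group was at most 13.7% of the mean.

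The second, dod-20 (WBGene00015259, 422433 to 424177, plus strand), was far lower. It stood at 0.807, 1.13 and 0.768 RPKM there, on 28, 39 and 24 reads, and at 4.40, 7.90 and 5.44 RPKM with rab-11.1 RNAi, on 116, 212 and 157 reads. Here, as for dod-21 and dod-22, replicate 2 was the highest of the rab-11.1 RNAi libraries. The increase was 6.56-fold (log2 fold change 1.84, SE 0.22, adjusted p = 0.00546). With 1 empty vector library at 1 RPKM or more, this gene too entered the test only through the group in which it was high. Its log2 fold change depended on the scale, at 0.88 with a pseudocount of 5 and 2.66 in limma-voom on recovered reads.

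The remaining genes of this kind, dod-18 and dod-23, did not pass. For dod-18 (WBGene00008316, chromosome I, 8019578 to 8020901, minus strand) the empty vector libraries were at 10.9, 12.9 and 9.71 RPKM and those of rab-11.1 RNAi at 12.4, 15.1 and 14.7 RPKM, which overlapped (log2 fold change 0.31, SE 0.13, adjusted p = 0.194). Its exons share 304 bases with C54G4.7 on the opposite strand, a gene at 11.3 ± 1.01 and 14.01 ± 1.63 RPKM (SD, n = 3), and no source says if counting took account of strand, so reads of the overlap cannot be told apart. For dod-23 (WBGene00009898, chromosome II, 8398161 to 8399164, minus strand) the values were 3.23, 1.26 and 3.24 RPKM with the empty vector and 2.13, 1.39 and 3.02 RPKM with rab-11.1 RNAi. Replicate 2 was the lowest library of both groups for dod-23, on 28 and 24 reads, and the groups overlapped (log2 fold change -0.14, SE 0.31, adjusted p = 0.807).

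**Figure D2:**
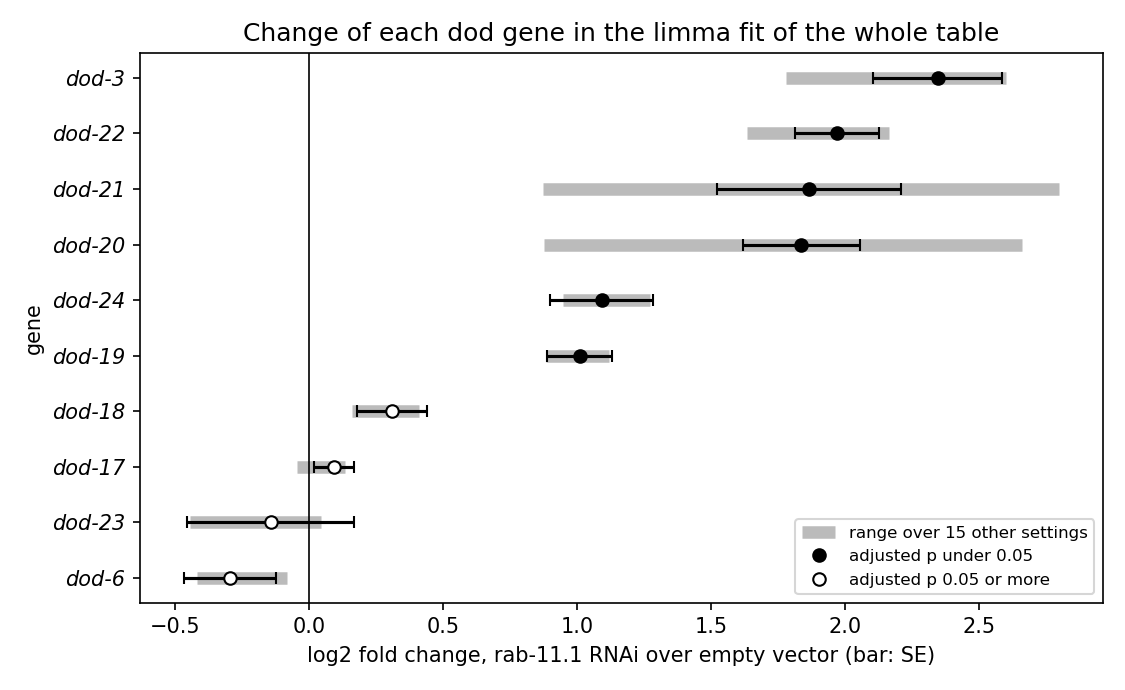
Log2 fold change of each dod gene, rab-11.1 RNAi over empty vector, on log2(RPKM + 1), with the SE of the limma fit as a bar, filled points for an adjusted p under 0.05 and a grey band for the range over 15 other settings. The 6 filled points lie between 1.01 and 2.34, and the bands of dod-17 and dod-23 cross 0.

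Leaving out the library labelled replicate 3 of rab-11.1 RNAi, in which the RPKM of the target was not lowered, left 5 of the 6 genes called. Their log2 fold changes were then 2.24 for dod-3, 1.06 for dod-19, 1.87 for dod-20, 2.16 for dod-21 and 2.06 for dod-22, with adjusted p values from 0.00801 to 0.0225. Over all fits that left out 1 library, 4 to 6 genes were called higher and 0 lower. The genes dod-3, dod-19, dod-20 and dod-22 passed in every one of these fits and in the other 9 settings tried. In the whole table the number of features called higher ranged from 265 to 943 when 1 library was left out. The 6 dod genes all had log2 fold changes of 1 or more, as did 398 of the 1097 features called higher. The family was also chosen with this contrast known, so nothing is read from the steadier calls. With the libraries rescaled by median-of-ratios factors, 552 features were called higher and 285 lower, so that 65.9% of the calls were higher instead of 88.1%, and the median of all features moved from 0.09 to -0.02. The same 6 dod genes were called in that fit and with quantile normalization.

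The genes that rose were also compared with each other library by library. Over the 6 libraries, the 15 pairs among them had a Pearson r of log2(RPKM + 1) between 0.73 and 0.97, values that include the difference between the groups. After the group means were taken off, r ran from -0.68 to 0.79. The pair dod-20 and dod-21 stood at 0.79, whereas dod-20 and dod-24 stood at -0.68 and dod-21 and dod-24, which are close neighbours, at -0.65. These are descriptions over 6 libraries that share their groups, too few to say whether the genes vary together within a group. Of 9654 protein-coding features compared, 808 had an r of 0.95 or more with dod-20, 859 with dod-21, 636 with dod-22, 385 with dod-3, 361 with dod-19 and 76 with dod-24.

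The features most like dod-22 over the 6 libraries were Y102A11A.9 (r = 0.998), crml-1 (0.998) and W04B5.3 (0.997). For dod-3 they were C34B2.5, F10A3.17 and vps-29 (0.997, 0.997 and 0.996). For dod-19 they were epg-5, an autophagy gene, npp-20, a nuclear pore gene, and the C-type lectin gene clec-67 (0.999, 0.997 and 0.997). For dod-20 they were magu-2, ZK643.5 and nlp-30, and for dod-21 nas-11, T28B4.4 and arl-8, with r of 0.998 to 0.999. For dod-24 they were math-3, the cytochrome P450 gene cyp-34A9 and enpl-1 (0.996, 0.993 and 0.987). Among the genes that did not pass, dod-6 was most like the aspartyl protease gene asp-3 (0.994), F54B11.11 and acs-22, and dod-17 most like ZK1025.2, plc-2 and uri-1. For dod-18 they were C10C5.7, nlp-33 and F28B3.10, and for dod-23 pmr-1, F56F11.4 and mes-2.

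Within 10 kb of a dod gene the annotation holds 47 other protein-coding genes, of which 46 were matched to a row of the table and 24 were tested. Of these 24, 5 rose and 0 fell (median log2 fold change 0.17), against 7.93% and 1.07% of all features tested. For 10 of the 24 all rab-11.1 RNAi libraries lay above all empty vector libraries, against 27.4% of all features. For K10D11.2, C32H11.9 and K10D11.3, the last outside the rule for named genes, the filter fixed this. None of their empty vector libraries reached 1 RPKM. The counts differed between loci, which was not tested. Beside dod-19 and dod-20 on chromosome V, 3 of 6 neighbours were tested and all 3 rose. Beside the 4 genes of chromosome IV, 11 of 15 were tested and 2 rose. Beside dod-6 2 of 5 were tested, beside dod-18 4 of 5 (eif-2beta was matched to no row) and beside dod-23 4 of 7, and 0 of these rose or fell in the limma fit. Beside dod-3, which lies among chemoreceptor genes, 0 of 9 passed the filter on low values.

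On chromosome V the gene between dod-19 and dod-20 nearest to dod-19 is ZK6.11, now named irg-8 as an infection response gene. It stood at 466.9, 516.1 and 508.3 RPKM with the empty vector and at 1052, 754 and 904.6 RPKM with rab-11.1 RNAi (log2 fold change 0.85, adjusted p = 0.012). Next to it, Y39D8A.1 rose 2.09-fold, from 6.93 ± 1.72 to 14.5 ± 1.52 RPKM (SD, n = 3; adjusted p = 0.0199). Beside dod-20, B0554.5, which falls outside the rule for named genes, rose from 1.43 ± 0.189 to 2.82 ± 0.19 RPKM (SD, n = 3; adjusted p = 0.0377). The 5 genes from dod-19 to B0554.5 that were tested were thus all called higher, at levels from 0.902 to 497 RPKM with the empty vector. The neighbours' calls rested more on single libraries: ZK6.11 did not pass without empty vector replicate 1 or 3, Y39D8A.1 did not pass without either of these, without rab-11.1 RNAi replicate 1 or without the library labelled replicate 3 of rab-11.1 RNAi, and B0554.5 passed in none of the 6 fits that left out 1 library. Nor did B0554.5 pass with either rescaling, or Y39D8A.1 with quantile normalization.

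In the chromosome IV stretch, members that rose stand among genes that mostly did not pass or were not tested. From dod-21 to dod-17 there are 9 other protein-coding genes, of which 5 were tested and 1 rose (median log2 fold change -0.05). That gene, F55G11.4, lies between dod-22 and dod-17, stood at 16.8, 25.9 and 18.8 RPKM with the empty vector and at 48.9, 48.7 and 49.7 RPKM with rab-11.1 RNAi (log2 fold change 1.24, adjusted p = 0.00582), and passed in all 15 other settings. Directly beside dod-22, F55G11.8 was at 36.8 ± 2.18 and 35.5 ± 1.52 RPKM and F55G11.2, 53 bases from dod-22, was at 17.01 ± 0.922 and 14.7 ± 3.01 RPKM (SD, n = 3), and neither passed (adjusted p = 0.733 and 0.385). Beyond dod-17, K10D11.2 rose from 0.542 ± 0.166 to 1.92 ± 0.191 RPKM (SD, n = 3; adjusted p = 0.0171), a gene that like dod-21 reached 1 RPKM in no empty vector library, and that did not pass without empty vector replicate 1 or 3 or rab-11.1 RNAi replicate 1. On the other side of dod-21, C32H11.9 (now cld-1), chosen after its values were seen, faces it at 467 bases. It stood at 0.239, 0.631 and 0.365 RPKM with the empty vector and at 2.59, 8.95 and 1.08 RPKM with rab-11.1 RNAi, so that replicate 2 was the highest library as in dod-21, and it did not pass (adjusted p = 0.116).

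**Figure D3:**
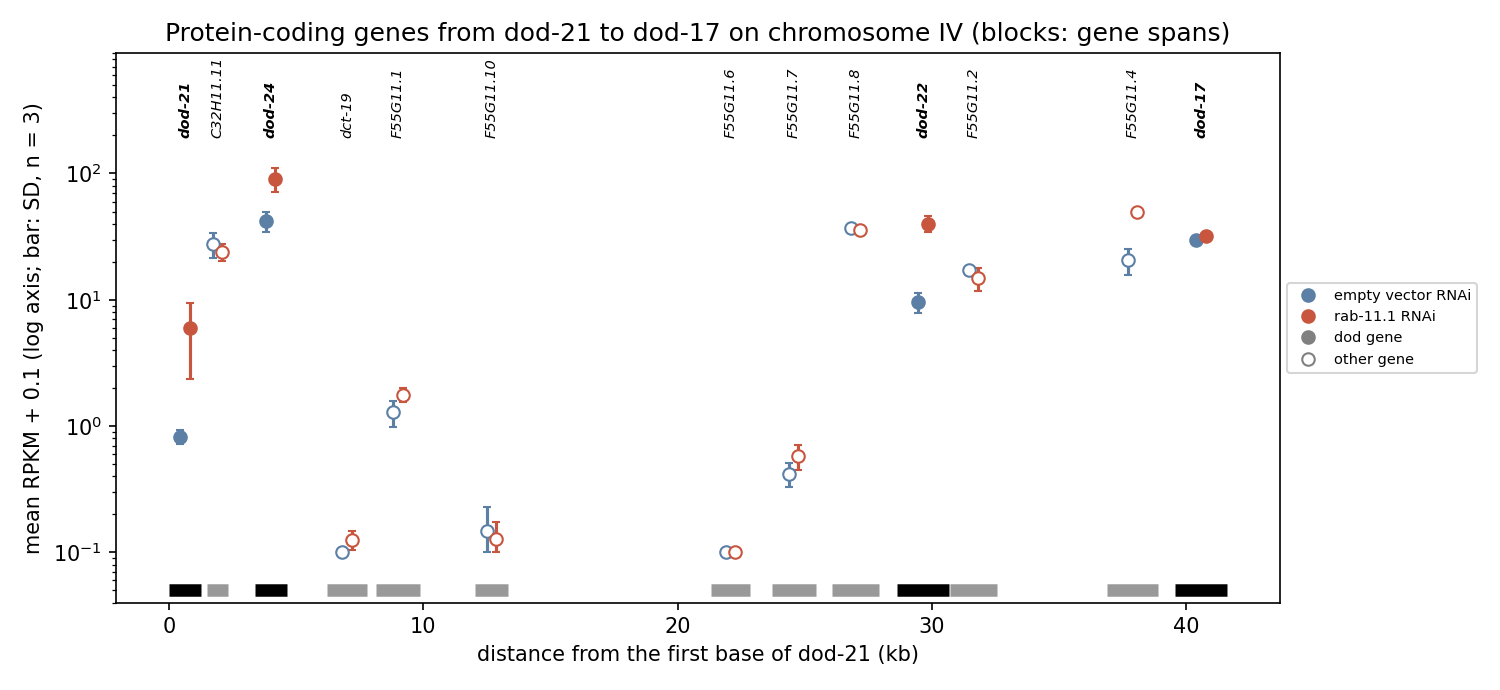
Mean RPKM plus 0.1 (log axis, bars for the SD over 3 libraries) of the 13 protein-coding genes from dod-21 to dod-17, against the distance from the first base of dod-21, with filled points for dod genes, open points for other genes and blocks for gene spans. The red points of dod-21, dod-24, dod-22 and F55G11.4 stand above the blue ones, and those of dod-17, F55G11.8 and F55G11.2 lie close to them.

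Genes of the insulin pathway were read beside the dod genes. The list is broad and also holds genes outside the pathway proper, such as hsf-1, pqm-1, jnk-1, cst-1, sir-2.1 and hcf-1, all called components here. Of 29 components, 25 were tested, 3 rose (12%, against 7.93% of all features) and 0 fell, with a median log2 fold change of 0.24. For 15 of the 25 all rab-11.1 RNAi libraries lay above all empty vector libraries, against 27.4% of all features. That count, made without rescaling, takes in small differences such as the 1.11-fold of daf-16. The receptor gene daf-2 stood at 10.9 ± 0.362 and 13.7 ± 0.764 RPKM (SD, n = 3; adjusted p = 0.0822), and daf-16 at 29.6 ± 1.43 and 32.96 ± 0.899 RPKM (SD, n = 3; adjusted p = 0.238). The zinc finger gene pqm-1, whose product is known to act on many genes lowered in daf-2 mutants, stood at 28.2, 44.8 and 30.3 RPKM with the empty vector and at 49.9, 79.1 and 51.4 RPKM with rab-11.1 RNAi, and its log2 fold change of 0.78 (SE 0.23) did not pass (adjusted p = 0.087). Those that rose were the kinase gene sgk-1, the adaptor gene aap-1 and the heat shock factor gene hsf-1, with log2 fold changes of 0.42, 0.50 and 0.47 (adjusted p = 0.0231, 0.0252 and 0.0274). The count depends on the fit: 10 components were higher under the replicate block, whereas 0 were with either rescaling and 0 in 5 of the 6 fits that left out 1 library, the exception being the fit without empty vector replicate 2 with 4.

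Among 27 genes known to be activated by DAF-16, 22 were tested, 5 rose (22.7%, against 7.93% of all features) and 0 fell (median log2 fold change 0.57). The lysozyme gene lys-7 stood at 28.8, 32.0 and 30.0 RPKM with the empty vector and at 258.8, 174.1 and 235.4 RPKM with rab-11.1 RNAi (log2 fold change 2.82, adjusted p = 0.000741). The noncoding gene tts-1 stood at 11.4, 15.2 and 14.01 RPKM with the empty vector and at 86.8, 274.3 and 51.5 RPKM with rab-11.1 RNAi (adjusted p = 0.0259). The catalase gene ctl-1 and the small heat shock gene hsp-16.11 rose by 0.44 and 1.78 on the log2 scale (both adjusted p = 0.0319), and ctl-2, outside the rule for named genes, by 0.34 (adjusted p = 0.0437). The catalase genes and the hsp-16 genes are close copies whose reads may be shared. The superoxide dismutase gene sod-3, chosen after its values were seen, did not pass, at 3.30 ± 0.654 and 3.24 ± 0.676 RPKM (SD, n = 3; adjusted p = 0.96). With the replicate block 10 of these genes were higher, with either rescaling 3, and without empty vector replicate 1 or 3 or rab-11.1 RNAi replicate 1 only lys-7 was left.

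Of 8 other genes known to be lowered in daf-2 mutants, 7 were tested, 1 rose and 2 fell (median log2 fold change -0.30). Over all features tested the shares were 7.93% higher and 1.07% lower. The insulin-like peptide gene ins-7 rose from 1.70 ± 0.583 to 4.85 ± 0.175 RPKM (adjusted p = 0.0165), the aquaporin gene aqp-1 fell from 54.3 ± 2.90 to 31.7 ± 1.82 RPKM (adjusted p = 0.00356) and the yolk gene vit-5 fell from 57.1 ± 41.4 to 1.74 ± 1.14 RPKM (SD, n = 3; adjusted p = 0.0322). For vit-5 the empty vector libraries themselves were uneven, at 79.5, 9.32 and 82.4 RPKM. The members of this list and the dod genes lowered in the same mutants therefore did not all move one way. In the fits that left out 1 library, ins-7 was not called without empty vector replicate 1, without rab-11.1 RNAi replicate 1 and without the library labelled replicate 3 of rab-11.1 RNAi, vit-5 was called only without empty vector replicate 2, and aqp-1 was called in all.

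In RNA of whole worms, fewer cells of a type and less RNA in each cell cannot be told apart. Of 11 intestine markers, all were above 0, 1 rose (cpr-1, 2.07-fold), 2 fell (vha-6 and pho-1) and 8 did not pass, and their summed RPKM ran from 5111 to 6074 with the empty vector and from 4580 to 5903 after rab-11.1 RNAi. These ranges overlap, but asp-1, a marker outside the rule for named genes, made up most of the sum in every library. In empty vector replicate 1 it held 2962 of the 5111 RPKM. Of the 11 markers, 2 were higher in each rab-11.1 RNAi library than in any empty vector library, and 3 were lower. Body wall muscle markers summed to 3500 to 3635 and to 2822 to 3206, neuron markers to 373.6 to 439.9 and to 493.5 to 699.1, and pharynx markers to 103.4 to 119.3 and to 81.7 to 95.4, with 0, 1 and 0 genes called. Much of the difference in the neuron sums lay in 1 gene, snb-1, at 124.4 ± 4.67 and 222.8 ± 61.6 RPKM (SD, n = 3). Epidermis, germline, sperm and coelomocyte markers overlapped in sum between the groups, and 1 gene of these lists was called (elt-3, higher). The 5 marker calls, with the neuron gene snb-1, each ended without empty vector replicate 1 or 3 and without rab-11.1 RNAi replicate 1. The part of these markers in the dod values was not tested. Germline and sperm markers were lowest in replicate 2 of both groups, at 307.6 and 242.6 RPKM and at 76.1 and 64.2 RPKM, the libraries in which dod-23 was also lowest.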

How the data were processed

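RNA was measured in 6 libraries, 3 of each group. The authors deposited RPKM values for 46739 features, from paired reads per the file headers, on WBcel235 per the submitters' processing notes. Not given in the sources used here are the aligner, the counter, its annotation and whether it used the strand. Names, spans and exons are from Ensembl release 115 of WBcel235 (45152 features matched). Depth and reads were recovered from the steps of the RPKM values, as whole reads within 0.001 in all libraries. For 2379 features the reads were whole at the annotated length. For 17112 a length was solved for that made them whole, and their reads rest on it. For dod-3 it was 531 bases against 420 annotated, and for dod-21 1100 against 1140. Counting errors cover counting alone.

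Features that reached 1 RPKM in 3 or more libraries entered limma 3.58.1 in R 4.3.3 as log2(RPKM + 1), with group as the only term, trend and robust settings, two-sided, at an adjusted p of 0.05. It was tested on simulated data. An exact permutation test of 3 against 3 cannot go below 0.1. Fits that left out libraries kept the features tested. Same-numbered libraries correlated at 0.40, 0.62 and 0.35 in their deviations from group means across genes. Empty vector replicate 1 correlated more with rab-11.1 RNAi replicate 3 (0.46), and the labels give replicate numbers but no pairing. Whether the numbers pair the libraries is thus undecided, and the block was used only as an alternative.

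Named were all members, up to 4 called genes per list or neighbour set with the smallest adjusted p, rab-11.1, daf-2, daf-16 and pqm-1, and the 3 features with the highest r to each member, at a mean of 5 RPKM or more. Members and lists, drawn from general knowledge, were chosen with earlier results of these data known. Sequences and relatives by sequence were not analysed here.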

Additional observations from a re-analysis of the deposited data

How the results depend on the processing

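The 15 other settings called 4 to 6 dod genes higher and 0 lower. With both replicate 3 libraries left out and the replicate block, 5 were higher and dod-24 did not pass (adjusted p = 0.0755), and the block alone changed no call of a dod gene. The sign of dod-17 turned with median-of-ratios rescaling (log2 fold change -0.029) and quantile normalization (-0.047), and that of dod-23 turned in 3 fits that left out 1 library (0.006 to 0.045 there, -0.446 at the lowest). Features called higher, 1097, became 2288 with the replicate block, 552 with median-of-ratios rescaling and 524 with quantile normalization, and those called lower, 148, became 618, 285 and 249, and 97 with no filter and 96 without trend. Leaving out 1 library gave 265 to 943 higher and 24 to 133 lower. Neighbours called higher, 5, became 3 with quantile normalization, 2 with both replicate 3 libraries left out and the block, and 1 to 4 with 1 library left out. Insulin pathway components called higher, 3, became 10 with the block, 0 with either rescaling, 1 with both replicate 3 libraries left out and the block, and 0 to 4 with 1 library left out. Genes activated by DAF-16 called higher, 5, became 10 with the block, 3 with either rescaling or without trend, 8 with both replicate 3 libraries left out and the block, and 1 to 5 with 1 library left out. Genes lowered in daf-2 mutants that were called lower, 2, became 1 with both replicate 3 libraries left out and the block, 1 with limma-voom, and 1 to 3 with 1 library left out, and those called higher, 1, ran from 0 to 1. The cause of these shifts was not tested. With 20 to 39 reads per empty vector library, depth limits the folds of dod-20 and dod-21.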
